A study of Mus musculus with 20 samples.

Results

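RNA was compared between regulatory T cells (Tregs) and CD8+ T cells of the mouse after 4 hr with 200 nM IL-2-REH. The samples were chosen by their labels and comprise 4 of the 20 libraries of the series, namely Treg replicates 1, 2 and 3 and the only CD8+ T cell library of that condition. IL-2-REH is a partial agonist made from IL-2 by substitutions that weaken its contact with the common gamma chain of the receptor. The series has 10 groups, since each cell type was also left unstimulated, and each cytokine (IL-2 itself and IL-2-REH) was applied for 90 min and for 4 hr, with 3 libraries per Treg group and 1 per CD8+ group.

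Tregs came from B6-Foxp3EGFP mice, were enriched with a kit for CD4+ T cells and were then sorted on GFP, which reports Foxp3. CD8+ T cells came from C57BL/6J mice and were enriched with a kit, with no sort stated. The strain field of every library reads C57BL/6N, which differs from that protocol. The tissue is given as spleen and lymph node for both cell types, the cytokine was added after isolation, and ages are not given in the sources used here. Cell type therefore goes together with mouse line, sorting and presence of the reporter, and these cannot be told apart. No source says that each replicate came from separate mice, so the p-values measure only the spread between these samples, which may be in part technical. Sex-linked genes, given below, set a Treg replicate apart from the rest, so the replicates were not all of the same mice.

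Tregs are CD4+ T cells that hold back immune responses and depend on the transcription factor Foxp3, whereas CD8+ T cells kill target cells with perforin and granzymes. IL-2 binds a receptor of an alpha chain (Il2ra, CD25), a beta chain (Il2rb) and the common gamma chain (Il2rg). The beta and gamma chains carry the kinases Jak1 and Jak3, which phosphorylate STAT5, and STAT5 then switches on genes such as Cish and Socs2, whose products damp the signal.

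Reads on genes numbered 25363734, 44460554 and 38352477 in the 3 Treg libraries and 44977546 in the CD8+ library, beside 20201392 to 63903764 over the series. Levels are given as RPKM, which corrects reads for exon length and sequencing depth, always in the order Treg replicate 1, 2, 3 and then the CD8+ library. Foxp3 (X chromosome, 7579676 to 7595243, GRCm38.p6, also called mm10) read 113, 124 and 67.2 RPKM in Tregs and 0.645 RPKM in CD8+ T cells. Cd8a (chromosome 6, 71373427 to 71379171) read 0.168, 0.211 and 1.84 RPKM in Tregs and 130 RPKM in CD8+ T cells. Both markers fitted the labels, and as the sort and the kit select on Foxp3 and against cells other than CD8+ T cells, their differences are checks and not findings. Cd4, the co-receptor of the other T cell lineage, read 100, 98.3 and 86.0 RPKM in Tregs and 0.571 RPKM in the CD8+ library.

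Treg replicate 3 stood apart from the other 3 libraries in markers of other blood cells. The summed level of 17 macrophage and granulocyte markers was 16.4, 45.6, 238 and 18.9 RPKM, with S100a9 at 120 RPKM in Treg replicate 3. The 10 erythroid and platelet markers summed to 6.89, 7.39, 204 and 7.49 RPKM and the 11 B cell markers to 4.67, 4.96, 21.4 and 6.07 RPKM. NK cell markers (9 genes) were highest in the CD8+ library, at 4.27, 15.9, 16.8 and 45.4 RPKM, and the defining NK receptor Ncr1 read 0, 0.406, 0.226 and 1.80 RPKM. Xist, expressed from the inactive X chromosome, read 43.6 RPKM in Treg replicate 2 and at most 0.0870 RPKM in the other 3 libraries, and the Y-linked Ddx3y was at 0 in Treg replicate 2 and between 20 and 27.4 RPKM in the others. This is the pattern of female cells in Treg replicate 2 and of male cells in the others, whereas the study lists both mouse lines as female. The part of these differences in the results below was not tested, and counts without each Treg library are given with the gene lists.

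The first question was which genes differed between Tregs and CD8+ T cells under IL-2-REH. Of 16399 genes tested, 1026 passed an adjusted p-value under 0.05, of which 689 were higher in Tregs (4.2% of genes tested) and 337 were lower (2.06%). The test was edgeR's quasi-likelihood test with Benjamini-Hochberg adjustment over all genes tested. With 1 CD8+ library there is no replicate error for CD8+ T cells, so the spread was taken from the 5 Treg groups and the CD8+ library was assumed to vary like a Treg library. The median log2 fold change over all genes tested was 0.15. Of the 689 higher genes, 543 were more than 4-fold higher. In each of the 1026 genes the CD8+ library lay outside the range of the 3 Treg libraries. As the spread came from Treg libraries, a call nearly requires this, so it is not separate evidence. Over all genes tested the CD8+ library lay below all 3 in 37.3% and above all 3 in 20.8%.

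Calls depended on whether replicate numbers were treated as pairs. With the replicate number as a block, and the CD8+ library in block 1 as labelled, 2658 genes passed (1601 higher and 1057 lower in Tregs), which included all 1026. With the CD8+ library placed in block 3, to which the submitters' library numbers run on, 1591 genes passed. Without Treg replicate 1, 2 or 3, the counts were 784, 917 and 814.

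A second count used no test. Over 10890 genes with an RPKM of at least 1 in either cell type, log2(RPKM + 1) was more than 2 above the CD8+ library in all 3 Treg libraries for 169 genes (1.55%) and more than 2 below it for 60 genes (0.551%). Of these, 143 and 57 had also passed the test in the same direction. Against Treg replicate 3 alone, the replicate whose library numbers adjoin those of the CD8+ libraries, 403 genes differed that much, 284 higher and 119 lower. Only 1 Treg library had to pass here, which is a looser rule.

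**Figure D1:**
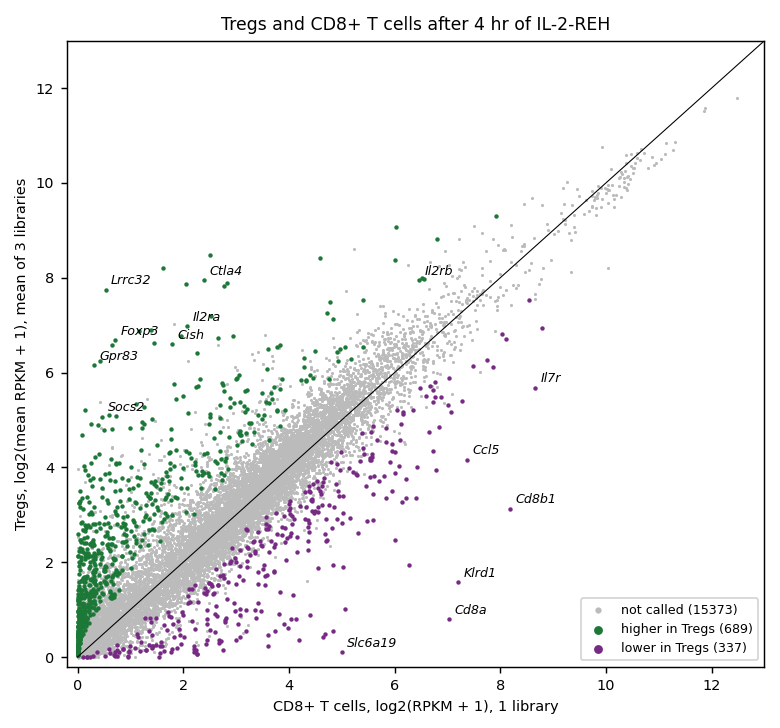
Each point is a gene, with log2(RPKM + 1) in the CD8+ T cell library on the horizontal axis and log2(mean RPKM + 1) of the 3 Treg libraries on the vertical axis, both after 4 hr of IL-2-REH. Green points are the 689 genes called higher and purple points the 337 called lower in Tregs, and Lrrc32, Gpr83, Foxp3 and Socs2 lie far above the diagonal while Cd8a, Klrd1, Cd8b1 and Slc6a19 lie far below it.

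Genes were then read by function, with lists of 6 to 32 genes that overlap in part. Treg identity and suppression genes were higher in Tregs in 24 of 28 members, CD8 lineage and cytotoxicity genes were lower in 11 of 27, and immediate early genes were higher in 10 of 19. Over all genes tested the shares were 4.2% higher and 2.06% lower. Of 32 DNA replication and mitosis genes, 0 passed in either direction in edgeR's test, and DESeq2 called 1 of them lower. In a list of this length 0 calls are near those shares and do not set it apart.

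**Figure D2:**
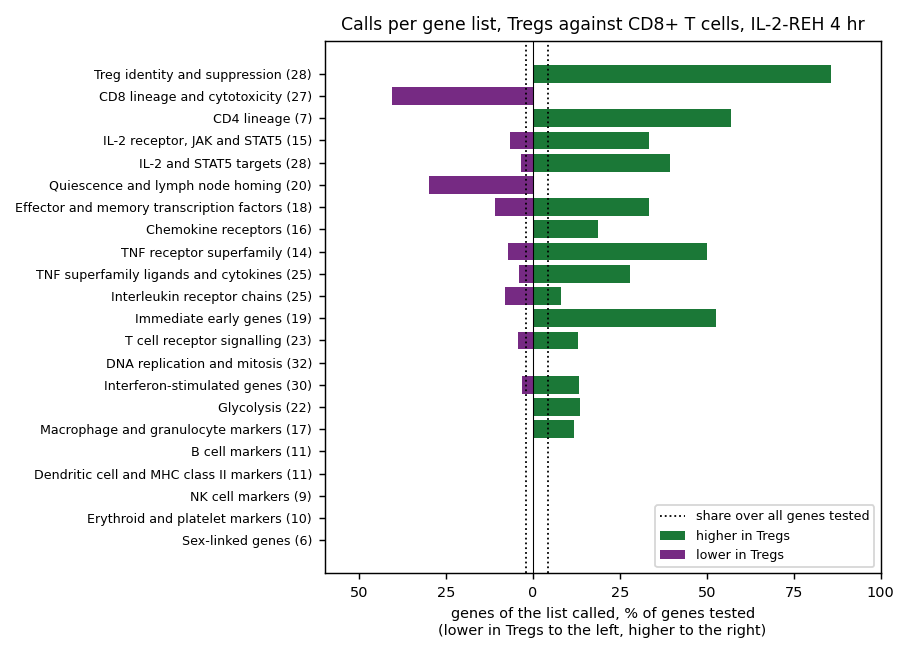
Horizontal bars give the percentage of genes tested in each list that were called higher (right, green) or lower (left, purple) in Tregs than in CD8+ T cells after 4 hr of IL-2-REH, with the number of genes tested in parentheses and dotted lines at the share over all genes tested. Treg identity reached 85.7% higher and the CD8 list 40.7% lower, beside 4.2% and 2.06% over all genes.

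Among Treg genes, 24 of 28 were higher in Tregs and 0 were lower, with a median log2 fold change of 4.51. Lrrc32 (GARP), the surface anchor of latent TGF-beta (chromosome 7, 98489305 to 98501831), read 175, 252 and 214 RPKM in Tregs and 0.445 RPKM in CD8+ T cells. All 3 Treg libraries were high and close to each other, and the log2 fold change was 8.76 ± 0.73 (SE, adjusted p = 8.48e-06). Gpr83, a G protein-coupled receptor abundant in Tregs, read 71.1, 66.5, 72.8 and 0.245 RPKM and differed by 8.02 ± 1.07 (adjusted p = 0.000435). Ctla4, an inhibitory receptor that strips costimulatory ligands from antigen-presenting cells, read 225, 276, 235 and 4.26 RPKM (log2 fold change 5.70 ± 0.79, adjusted p = 0.000543). The ranges of the Treg libraries lay far from the CD8+ value in each of these genes.

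The Ikaros family members of the Treg program were also higher. Ikzf2 (Helios) read 49.9, 75.7, 35.5 and 5.64 RPKM, a log2 fold change of 3.09 (adjusted p = 0.000829). Ikzf4 (Eos), a partner of Foxp3 in gene silencing, read 34.4, 46.2, 46.1 and 2.63 RPKM, a log2 fold change of 3.87 ± 0.31 (adjusted p = 5.65e-06). The suppressive cytokine Il10 read 6.86, 10.6 and 8.08 RPKM in Tregs and had only 2 reads in the CD8+ library. For such genes the ratio of the Treg mean to the CD8+ level is given with a 95% interval that covers counting error only, which was 403 (111 to 3324) for Il10. For Areg, an epidermal growth factor-like ligand of tissue repair, with 3 CD8+ reads, the ratio was 255 (87.3 to 1237). Ebi3, a subunit of IL-27 and IL-35, also had 3 CD8+ reads, with a ratio of 111 (38.0 to 539).

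The other 4 members did not pass, and they were not uniformly high in Tregs. Itgae (CD103, an integrin that binds epithelial E-cadherin) read 16.5, 7.85, 7.12 and 28.1 RPKM, below the CD8+ level in every Treg library (log2 fold change -1.56, adjusted p = 0.0805). Without Treg replicate 1 it passed as lower in Tregs, at -2.11 (adjusted p = 0.0119). Klrg1, a receptor of highly differentiated T cells, read 29.6, 14.95, 10.9 and 1.57 RPKM (log2 fold change 3.42, adjusted p = 0.0829) and passed with the replicate block (adjusted p = 2.23e-06, and 0.000109 with the CD8+ library in block 3). Nt5e (CD73), which makes adenosine, stood at 1.49 (adjusted p = 0.115), with an adjusted p of 0.0281 with the CD8+ library in block 1 and 0.097 in block 3. Tgfb1 stood at 1.16 (adjusted p = 0.108). Icos and Prdm1 were called, with adjusted p-values of 0.0491 and 0.0398. Icos lost its call whichever Treg replicate was left out, and Prdm1 lost it without replicate 1 or 2. Over the list, 22, 22 and 23 genes were higher without replicate 1, 2 or 3.

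CD4 lineage genes were higher in Tregs in 4 of 7 members, with a median log2 fold change of 3.36. Zbtb7b (ThPOK), the transcription factor that commits thymocytes to the CD4 lineage, read 13.9, 18.1, 13.6 and 1.02 RPKM, 3.75 on the log2 scale (adjusted p = 0.0071). Tnfsf8 and Tnfsf11 were the other members that passed beside Cd4. Tnfsf8 (adjusted p = 0.0452) lost its call without replicate 1 (adjusted p = 0.0611), without replicate 2 (adjusted p = 0.0857) and with the CD8+ library in block 3 (adjusted p = 0.0509). Without replicate 1, 2 or 3 the higher genes numbered 3, 3 and 4.

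Of 27 CD8 lineage and cytotoxicity genes, 11 were lower in Tregs and 0 were higher, with a median log2 fold change of -2.15. Cd8b1, the beta chain of the CD8 co-receptor, read 6.12, 6.27, 10.8 and 290 RPKM (log2 fold change -5.35 ± 0.32, adjusted p = 3.11e-07). Ccl5, a chemokine stored by memory CD8+ T cells, read 14.9, 17.0, 19.0 and 163.7 RPKM (-3.40 ± 0.53, adjusted p = 0.00132). Klrd1 (CD94), a chain of NK-type receptors, read 0.477, 2.77, 2.75 and 146 RPKM (-6.32 ± 1.10, adjusted p = 0.00305). The CD8+ library was above all Treg libraries in these genes by a wide margin.

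Eomes, Tbx21, Prf1 and Crtam were among the 11 genes that were lower in Tregs. Eomes, a T-box factor of memory CD8+ T cells, read 0.469, 1.24, 1.28 and 9.29 RPKM (-3.36 ± 0.63, adjusted p = 0.00506). Its relative Tbx21 (T-bet) differed by -1.77 (adjusted p = 0.0199, and 0.0504 without Treg replicate 1). Prf1, the pore-forming perforin, read 0.513, 0.900, 0.925 and 9.32 RPKM (-3.71 ± 0.91, adjusted p = 0.0244). Leaving out any Treg replicate ended this call, with adjusted p-values of 0.0532 to 0.0690. Crtam, an adhesion receptor of activated CD8+ T cells, read 0.284, 0.182, 0.213 and 5.36 RPKM (-4.70 ± 0.50, adjusted p = 7.03e-05).

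Granzyme genes were split. Gzmm passed as lower in Tregs (-2.10, adjusted p = 0.0227), but it lost the call without replicate 1 or 2. Gzma read 0.209, 2.56, 3.31 and 19.2 RPKM and did not pass (-3.36, adjusted p = 0.281), though it did with the block, at -6.68 (adjusted p = 1.02e-07) with the CD8+ library in block 1 and -2.97 (adjusted p = 0.000112) in block 3. Gzmb, the granzyme most inducible by IL-2, was the reverse at 16.1, 5.49, 3.02 and 1.999 RPKM, with its highest level in Treg replicate 1. The log2 fold change of Gzmb was 1.90 (adjusted p = 0.343) and 0.87 without replicate 1 (adjusted p = 0.667). With the block Gzmb passed at 2.42 (adjusted p = 0.00729) with the CD8+ library in block 1, but not with it in block 3 (0.89, adjusted p = 0.317). Ifng was below 1 RPKM in all 4 libraries (log2 fold change 0.25, adjusted p = 0.947).

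The NK markers described above are set beside the CD8 list here, and whether they moved together was not tested. Of the 9 NK markers, 0 passed in edgeR's test as fitted here, with a median of -2.92. DESeq2 called 1 of 9 lower in Tregs, limma 1 of 6, and edgeR 1 of 6 at a mean RPKM of at least 1. With the block 7 were lower with the CD8+ library in block 1 and 6 with it in block 3. In the CD8 list, 7, 8 and 10 genes were lower in Tregs without replicate 1, 2 or 3, and with the block 18 were lower and 2 higher with the CD8+ library in block 1 and 16 lower and 1 higher with it in block 3. In bulk RNA, fewer cells that express a gene and less RNA per cell cannot be told apart.

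The chains of the IL-2 receptor differed in how far they stood apart between the cell types. Il2ra, which raises the affinity of the receptor (chromosome 2, 11642792 to 11693194), read 133, 151, 90 and 3.20 RPKM (log2 fold change 5.13 ± 0.53, adjusted p = 5.46e-05). Il2rb read 284, 289, 166.4 and 87.5 RPKM (1.34 ± 0.34, adjusted p = 0.0274). All Treg libraries lay above the CD8+ value for both chains, but the Il2rb call was lost without replicate 1 (adjusted p = 0.0787) and without replicate 2 (adjusted p = 0.0678). Il2rg, the chain whose contact is weakened in IL-2-REH, read 168, 241, 193 and 196 RPKM. The CD8+ value of Il2rg fell inside the Treg range, and the log2 fold change was -0.11 ± 0.39 (adjusted p = 0.911).

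Downstream of the receptor, 5 of 15 genes of the IL-2 receptor, JAK and STAT5 list were higher in Tregs and 1 was lower (median 1.43). The one that was lower was Jak1, the kinase bound to the beta chain, at 107, 149, 80.5 and 263 RPKM (-1.38 ± 0.32, adjusted p = 0.018). Jak3, bound to the gamma chain, read 10.2, 15.9, 12.2 and 9.16 RPKM (0.33, adjusted p = 0.752). Stat5a read 90.03, 135, 105 and 10.7 RPKM. Its log2 fold change of 3.22 ± 0.91 did not reach the threshold (adjusted p = 0.0519) but passed with the block (adjusted p = 0.0226, and 0.0431 with the CD8+ library in block 3). Stat5b read 111, 140, 92.2 and 38.3 RPKM (1.43, adjusted p = 0.193). All 3 Treg libraries were above the CD8+ library for Stat5a and Stat5b and below it for Jak1.

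Feedback inhibitors of the pathway were the other members that passed. Cish, an SH2 protein that binds the receptor (chromosome 9, 107296659 to 107302784), read 85.9, 112, 90.1 and 2.45 RPKM (5.15 ± 0.36, adjusted p = 1.64e-06). Socs2 read 36.3, 27.6, 33.8 and 0.385 RPKM (6.27 ± 0.57, adjusted p = 1.63e-05). Socs3 read 38.2, 42.4, 39.7 and 11.3 RPKM (1.68 ± 0.38, adjusted p = 0.0156). The Treg libraries lay close together in these genes and did not overlap the CD8+ value. Socs1 read 53.8, 37.4, 30.5 and 9.81 RPKM (1.91, adjusted p = 0.073). It passed with the CD8+ library in block 1 (adjusted p = 0.00752) but not in block 3 (adjusted p = 0.0568). In the whole list, 4, 4 and 5 genes were higher without replicate 1, 2 or 3, and Jak1 was lower in each case.

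**Figure D3:**
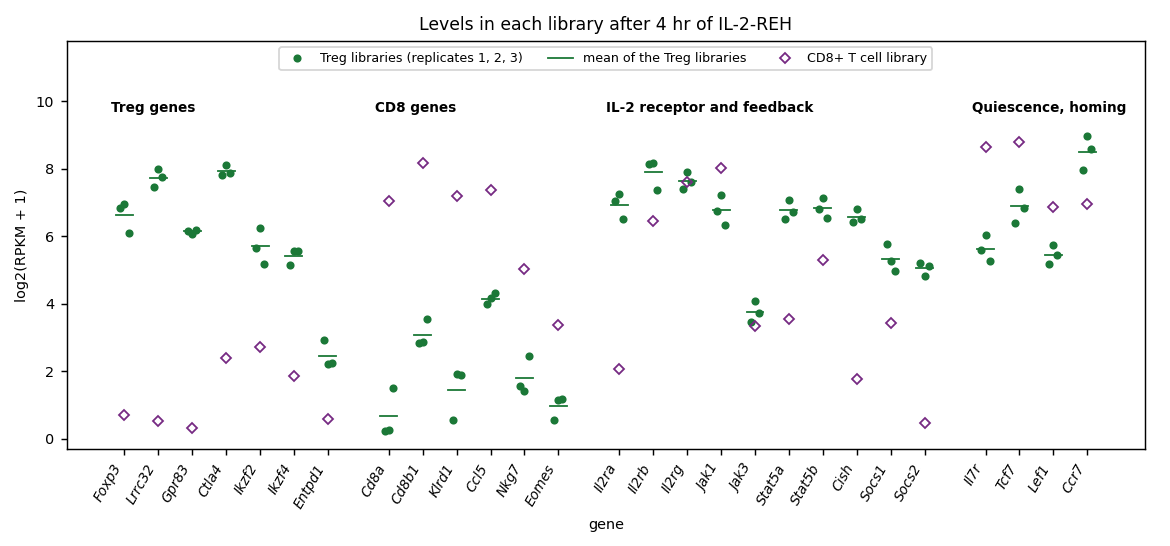
Filled green circles are Treg replicates 1, 2 and 3, green lines their means and open purple diamonds the CD8+ T cell library, on a log2(RPKM + 1) axis, after 4 hr of IL-2-REH. Il2ra, Cish and Socs2 were far higher in all 3 Treg libraries, Il2rg lay in the same range in both cell types, and Jak1, Il7r and Tcf7 were higher in the CD8+ library.

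The wider list of IL-2 and STAT5 target genes had 11 of 28 members higher and 1 lower in Tregs, with a median of 1.84 beside 0.15 over all genes tested. The list holds genes that the study picked out in these libraries, Tnf, Lta, Cdk6, Ramp3 and Gls2 among them, so its counts are not independent evidence of a direction. Ecm1, a secreted matrix protein, read 190, 215, 292 and 3.15 RPKM (6.08 ± 0.55, adjusted p = 1.63e-05). Bcl2l1, which encodes the survival protein Bcl-xL, read 20.5, 47.4, 35.1 and 3.27 RPKM (3.24 ± 0.53, adjusted p = 0.00195). Pim1, a kinase of cytokine-driven growth, read 252, 397, 341 and 63.1 RPKM (2.24, adjusted p = 0.00799). Prf1 was the member that was lower. Without replicate 1, 2 or 3 the higher genes numbered 11, 11 and 12 and the lower genes 0.

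Other growth and survival targets did not pass. Bcl2 read 24.9, 27.3, 23.1 and 13.4 RPKM (0.77, adjusted p = 0.444). Myc, a driver of cell growth, read 25.1, 60.6, 38.2 and 10.8 RPKM (1.78, adjusted p = 0.209). With the block, Myc passed at 0.99 (adjusted p = 0.0386), and with the CD8+ library in block 3 at 1.93 (adjusted p = 0.00131). Cdk6, a kinase of G1 progression, read 7.64, 8.17, 3.42 and 2.47 RPKM (1.22, adjusted p = 0.0777). It passed without Treg replicate 3 (1.50, adjusted p = 0.00616). Lta, a TNF family cytokine, read 26.3, 18.8, 29.8 and 4.37 RPKM (2.39, adjusted p = 0.106), and Tnf read 6.51, 13.7, 16.1 and 1.77 RPKM (2.64 ± 0.61, adjusted p = 0.0172).

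STAT5 dimers bind a palindrome of TTC and GAA separated by 3 bases, so the promoters of the target list were searched for these letters, which read alike on both strands, in the 250 bases before the start of the gene. RefSeq promoter entries (GRCm38.p6) were held for 22 of the 28 genes, and 4 of these (Txnrd1, Ifng, Socs3 and Lta) contained the motif. A gene such as Txnrd1 can have several entries, and counted by entry 5 of 28 target entries contained the motif. Over all 32851 promoters searched, also counted by entry, 2306 (7.02%) contained it and 104 (0.317%) contained it at least 2 times. The promoters of Lta, with 2 matches, of Socs3, with 1, and of Cish, the target with the smallest adjusted p in the list and no match in this window, are shown to set these differences beside the sequences. Capitals mark the motif. Lta lies on the minus strand, with the window at chr17:35205352-35205601 and matches that start 152 and 16 bases before the gene. Socs3 lies on the minus strand at chr11:117969367-117969616, with a match 154 bases before the start. Cish lies on the plus strand at chr9:107296409-107296658. A match is a string of letters and not an occupied site.
Lta: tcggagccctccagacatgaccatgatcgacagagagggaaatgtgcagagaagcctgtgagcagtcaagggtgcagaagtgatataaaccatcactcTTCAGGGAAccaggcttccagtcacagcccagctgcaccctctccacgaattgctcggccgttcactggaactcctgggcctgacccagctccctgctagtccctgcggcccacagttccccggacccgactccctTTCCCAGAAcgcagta
Socs3: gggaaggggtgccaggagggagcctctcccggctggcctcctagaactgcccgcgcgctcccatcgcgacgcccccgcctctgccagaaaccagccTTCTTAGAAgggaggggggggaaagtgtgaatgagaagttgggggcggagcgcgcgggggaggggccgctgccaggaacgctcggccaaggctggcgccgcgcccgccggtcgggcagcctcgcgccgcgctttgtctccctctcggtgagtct
Cish: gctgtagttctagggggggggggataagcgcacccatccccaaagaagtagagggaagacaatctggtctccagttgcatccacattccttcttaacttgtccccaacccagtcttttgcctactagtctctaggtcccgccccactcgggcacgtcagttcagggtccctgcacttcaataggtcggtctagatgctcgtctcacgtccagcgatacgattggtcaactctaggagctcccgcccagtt

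Genes of quiescence and lymph node homing were lower in Tregs in 6 of 20 members and higher in 0, with a median of -0.49. Il7r, the receptor for the survival cytokine IL-7, read 47.8, 65.6, 37.4 and 403 RPKM (-3.16 ± 0.36, adjusted p = 0.000127). Tcf7 (TCF-1), a factor of naive and memory T cells, read 84.2, 170, 114 and 444 RPKM (-2.01, adjusted p = 0.0193, and 0.0513 without replicate 3). Its partner Lef1 read 35.5, 52.7, 42.4 and 117 RPKM (-1.57, adjusted p = 0.0135). In all of these the CD8+ library was above every Treg library.

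Ccr7, the chemokine receptor that guides cells into lymph nodes, read 247, 502, 389 and 124 RPKM and did not pass (1.47, adjusted p = 0.428). Klf2, a factor that maintains the expression of homing receptors, had a log2 fold change of 0.02. Dapl1, Actn1 and Klf3 were the remaining members that passed, at -4.84, -2.05 and -1.53. Actn1 lost its call without replicate 1 (adjusted p = 0.0502), and Klf3 lost it without replicate 1 or 3. The lower genes numbered 4, 7 and 4 without replicate 1, 2 or 3.

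Of 18 transcription factors of effector and memory cells, 6 were higher and 2 lower in Tregs (median 1.96). Maf, which drives Il10, read 35.9, 26.3, 17.5 and 0.421 RPKM (5.84, adjusted p = 8.83e-05). Nfil3 read 28.2, 32.5, 33.7 and 1.65 RPKM (4.12, adjusted p = 0.00254), and Bhlhe40 read 40.4, 73.8, 46.0 and 2.55 RPKM (4.24, adjusted p = 0.00204). Batf, an AP-1 factor of effector Tregs, read 31.02, 41.8, 32.4 and 8.004 RPKM (1.98, adjusted p = 0.00305). Ahr (2.83, adjusted p = 0.00799) and Prdm1 completed those that were higher, and Eomes and Tbx21 were the lower pair. Without replicate 1, 2 or 3 the higher genes numbered 5, 5 and 6 and the lower genes 1, 2 and 2.

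Receptors of the TNF superfamily were higher in Tregs in 7 of 14 members and lower in 1, with a median of 1.65. Tnfrsf4 (OX40), a costimulatory receptor, read 309, 379, 381 and 4.66 RPKM (6.12 ± 0.93, adjusted p = 0.00109). Tnfrsf9 (4-1BB) read 343, 283, 252 and 2.05 RPKM (7.02 ± 1.32, adjusted p = 0.00505). Tnfrsf18 (GITR) read 393, 326, 307 and 23.1 RPKM (3.75 ± 0.63, adjusted p = 0.00229). These 3 are also members of the Treg list. Tnfrsf1b (TNFR2), the receptor through which TNF acts on Tregs, read 79.9, 110, 77.2 and 11.2 RPKM (2.85, adjusted p = 0.0133). Tnfrsf8 (CD30) had 3 CD8+ reads and a ratio of 35.5 (12.2 to 172). Tnfrsf25 (1.67) and the death receptor Fas (1.63) also passed, Fas with adjusted p-values of 0.0515 and 0.0548 without replicate 2 or 3. The member that was lower was Tnfrsf26, at 21.8, 16.9, 16.3 and 46.8 RPKM (-1.49, adjusted p = 0.0328), and it lost its call without replicate 2 or 3. Of these receptors, 7, 6 and 6 were higher without replicate 1, 2 or 3.

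Ligands and cytokines were higher in Tregs in 7 of 25 genes and lower in 1 (median 0.87). The higher genes were Tnf, Tnfsf8, Tnfsf9, Tnfsf11, Il10, Lif and Areg, and the lower gene was Ccl5. The higher genes numbered 6, 4 and 6 without replicate 1, 2 or 3. Lif, a cytokine of the IL-6 family, read 1.33, 9.90, 4.91 and 0.0809 RPKM and was spread widely among the Treg libraries (5.88 ± 1.53, adjusted p = 0.0342). Its adjusted p was 0.0506 without replicate 2 and 0.0577 without replicate 3.

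Among chemokine receptors, 3 of 16 genes tested were higher in Tregs and 0 were lower (median 0.34), and a further listed gene, Ackr3, was at 0 in all 4 libraries. Ccr8, a receptor of tissue Tregs, read 20.7, 38.1, 14.8 and 0.0597 RPKM (8.48 ± 1.34, adjusted p = 0.00153). Ccr4, which binds skin and lung chemokines, read 25.3, 15.8, 7.12 and 0.198 RPKM (6.19 ± 0.77, adjusted p = 0.000241). Ccr6 differed by 5.61 (adjusted p = 0.000212). With the block and the CD8+ library in block 1, 5 chemokine receptors were higher and 2 lower, the gained genes being Ccr2 and Ccr3 as higher and Cxcr6 and Ccr9 as lower. With the CD8+ library in block 3, 4 were higher and 2 lower, and Ccr2 stood at -0.28 (adjusted p = 0.719).

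Receptor chains for other interleukins were evenly split, with 2 of 25 higher and 2 lower and a median of -0.07. Il1r2, a decoy receptor for IL-1, read 13.5, 14.6, 15.2 and 0.103 RPKM (6.98 ± 1.11, adjusted p = 0.00167). Il9r passed as higher (3.26, adjusted p = 0.0456), though not when any Treg replicate was left out. Il18rap, the accessory chain of the IL-18 receptor, was lower at 3.53, 5.45, 2.97 and 12.2 RPKM (-1.77, adjusted p = 0.0103), as was Il7r. Without replicate 1, 2 or 3 the higher genes numbered 2, 1 and 1 and the lower genes 2, 3 and 2. With the block, 3 were higher and 7 lower with the CD8+ library in block 1, and 4 were higher and 2 lower with it in block 3.

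Immediate early genes, which respond rapidly to receptor signals, were higher in Tregs in 10 of 19 members and lower in 0, with a median of 3.04. Fos read 13.3, 61.0, 38.6 and 1.38 RPKM (4.6 ± 1.09, adjusted p = 0.0203). Fosb read 10.9, 51.9, 36.8 and 0.512 RPKM (5.86 ± 1.36, adjusted p = 0.0183). Nr4a1 (Nur77), a sensor of antigen receptor signals, read 65.2, 378, 239 and 5.82 RPKM (5.13 ± 1.41, adjusted p = 0.0452). Treg replicate 1 was the lowest Treg library in these 3 genes, and it was still above the CD8+ library. Nr4a1 lost its call without replicate 2 (adjusted p = 0.0677) or replicate 3 (adjusted p = 0.0779).

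Junb, an AP-1 subunit, read 141, 226, 170 and 26.4 RPKM (2.61, adjusted p = 0.00846). The phosphatase gene Dusp1, which shuts off MAP kinases, read 38.5, 88.3, 46.0 and 3.95 RPKM (3.70, adjusted p = 0.002). The other members that passed were Jun, Jund, Ier2, Atf3 and Fosl1, the last with 3 CD8+ reads and a ratio of 24.7 (8.44 to 120). Jund and Ier2, like Nr4a1, lost their calls without replicate 2 and without replicate 3, and 7 members passed in either case.

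T cell receptor signalling genes had a median of -0.00, with 3 of 23 higher and 1 lower in Tregs. Cd5 (2.19), Cd6 (1.36) and the adhesion receptor Cd2 (1.91) were higher, and Themis, which tunes signalling during thymic selection, was lower at 2.59, 4.40, 1.51 and 27.5 RPKM (-3.44, adjusted p = 0.00674). The CD3 chains and the kinase genes Lck and Zap70 did not pass. With the block Lck passed only with the CD8+ library in block 1 (-1.14, adjusted p = 0.00957), and not with it in block 3 (-0.51, adjusted p = 0.284).

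Proliferation genes showed 0 of 32 calls in either direction by edgeR, beside 4.2% higher and 2.06% lower over all genes tested. Their median was 0.43, and 23 of 32 were above 0. Mki67, a marker of cycling cells, read 7.10, 14.9, 5.54 and 5.37 RPKM (0.60, adjusted p = 0.638). DESeq2 called 1 of the 32 as lower. With the block and the CD8+ library in block 1, 1 gene was higher (Birc5) and 1 lower (Ccne1), whereas 0 passed in either direction with it in block 3 (adjusted p = 0.105 and 0.0539 for these genes).

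Interferon-stimulated genes were higher in Tregs in 4 of 30 members and lower in 1 (median 0.57). Isg15, a ubiquitin-like modifier, read 12.6, 11.7, 12.9 and 0.950 RPKM (3.57, adjusted p = 0.00196). Gbp3 (2.05, adjusted p = 0.0126), Ly6a (2.92) and Oas1a (1.65) were also higher and Ifit3 (-2.33) was lower. Without replicate 1 or 3 only Isg15 and Gbp3 passed as higher, and without each replicate in turn Ifit3 did not pass (adjusted p = 0.0516 to 0.110). Without replicate 3 Ly6c2 passed as lower (-2.07, adjusted p = 0.043).

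Glycolysis genes were higher in 3 of 22 and lower in 0 (median 0.43). Ldhb, a lactate dehydrogenase chain, read 20.01, 18.1, 20.6 and 2.65 RPKM (2.75, adjusted p = 0.0003). Tpi1 read 27.6, 23.1, 26.3 and 7.28 RPKM (1.68, adjusted p = 0.00188). Slc16a3, a lactate exporter, read 27.6, 29.4, 29.1 and 0.306 RPKM (6.41, adjusted p = 0.0344), but missed the threshold without replicate 1 or 3. In the other gene lists of blood cells, Cd14 and Cxcl2 were the 2 macrophage markers that passed, Cxcl2 being at least 26.6-fold higher in Tregs against a floor of 3 reads in the CD8+ library, where it had 0. No B cell, MHC class II, erythroid or sex-linked gene passed in edgeR's test without the block. DESeq2 called 1 dendritic cell or MHC class II gene higher and 1 lower, and 1 erythroid or platelet gene lower. With the block and the CD8+ library in block 1, 0 of 11 B cell genes were higher and 3 lower in Tregs. The counts were 1 and 6 of 11 dendritic cell and MHC class II genes and 0 and 4 of 10 erythroid and platelet genes. For 17 macrophage and granulocyte genes they were 2 and 3. With the CD8+ library in block 3, they were 3 and 0, 3 and 2, 5 and 1, and 5 and 0 in the same order. Over all 16399 genes tested, 1601 were higher and 1057 lower in block 1, and 983 and 608 in block 3.

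Outside the lists, the largest changes by a set rule (past the threshold, past the 4-fold count in all replicates and at least 5 RPKM in the higher group) named further genes. Map6, which binds microtubules, read 8.75, 9.28, 7.62 and 0.0241 RPKM (8.29 ± 0.44, adjusted p = 1.54e-07). Penk, the precursor of enkephalin peptides, read 28.6, 41.4, 37.8 and 0.108 RPKM (8.22, adjusted p = 0.000464). Fam160a1 read 6.36, 13.6, 10.9 and 0.0283 RPKM (8.34, adjusted p = 5.46e-05). Noxa1, an activator of NADPH oxidase, had 1 CD8+ read and a ratio of 608 (109 to 24007). Ptpn5 (8.05) completed the higher genes, beside Lrrc32, Ccr8, Il10, Gpr83 and Areg.

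Slc6a19, a transporter of neutral amino acids on chromosome 13 (73679745 to 73700780, mm10), was the gene with the most negative change. It read 0.0376, 0.0593, 0.115 and 31.1 RPKM (-8.86 ± 0.66, adjusted p = 3.11e-06). Lcn4 (-6.26), the long non-coding RNA Tmevpg1 beside Ifng (-6.13) and Fam71b (-5.78) followed with Cd8a, Klrd1 and Cd8b1. The NK-type receptor genes Klra12, Klra13-ps and Klra23 (-6.04, -6.01 and -5.99) belong to a family of similar genes, and Klra13-ps had 5, 18, 43 and 1633 reads where Klra23 had 5, 20, 43 and 1665, so how reads were assigned among them is uncertain. Each lost its call without replicate 1 or 2, and Klra12 and Klra23 also without replicate 3.

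The next question was whether the differences under IL-2-REH were also there in the other conditions, using the same fit and, for each cell type, the libraries of the other condition. Without cytokine, 780 genes (4.76%) passed, of which 599 had passed in the same direction under IL-2-REH at 4 hr. This is 58.4% of the calls under IL-2-REH and 76.8% of those without cytokine. With IL-2 at 4 hr, 988 genes (6.02%) passed and 709 were shared (69.1% of the IL-2-REH calls and 71.8% of the IL-2 calls). With IL-2-REH at 90 min, 937 genes (5.71%) passed and 724 were shared (70.6% and 77.3%). No gene was called in opposite directions (0 in each of the 3 overlaps).

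Whether the response itself differed between the cell types was tested as an interaction. For IL-2-REH at 4 hr against unstimulated cells, 0 genes (0.00%) passed in edgeR's test, with a smallest adjusted p of 0.459, and 351 (2.14%) had an unadjusted p under 0.05. DESeq2 called 11, and edgeR called 4 without replicate 1 of the unstimulated Tregs. For IL-2-REH against IL-2 at 4 hr, 0 genes (0.00%) passed, with a smallest adjusted p of 0.102 (Cish), and 201 (1.23%) had an unadjusted p under 0.05. DESeq2 called 6, Cish and Tnf among them. With the replicate block edgeR called 1 gene, Cish (2.64, adjusted p = 0.0384). The genes described in the next paragraphs were chosen after their values were seen, from the lists. All had an unadjusted p under 0.05 except Il2ra and, against unstimulated cells, Cish. After adjustment over all genes tested p was close to 1 for each but Cish against IL-2. Their interactions are given on the log2 scale with the SE.

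Target genes of IL-2 were the group with the most such differences between IL-2-REH and IL-2. Of 28 targets, 14 had an unadjusted p under 0.05, and 13 of these were positive (0.781% over all genes), meaning that the level under IL-2-REH relative to IL-2 was higher in Tregs than in CD8+ T cells. The median of the list was 1.26, beside -0.05 over all genes tested, and 23 of 28 were above 0. On log2(RPKM + 1), the median change from IL-2 to IL-2-REH was -0.67 in Tregs and -1.59 in CD8+ T cells. Part of the target list was picked by the study from the same contrast in CD8+ T cells, so this count is a description. Interferon-stimulated genes also went this way, with 6 of 30 positive and 0 negative at an unadjusted p under 0.05. Their median was 0.97, and 27 were above 0. On log2(RPKM + 1), their median change from IL-2 to IL-2-REH was -0.11 in Tregs and -1.04 in CD8+ T cells.

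Cish read 138, 224 and 135 RPKM in Tregs with IL-2 and 54.7, 65.5 and 54.0 RPKM without cytokine. In CD8+ T cells Cish read 1.87 RPKM without cytokine, 26.1 under IL-2 and 2.45 under IL-2-REH. The interaction against IL-2 was 2.63 ± 0.38. Treg levels with IL-2-REH were thus between those of the other conditions, whereas the CD8+ level was near the unstimulated one. Against unstimulated cells the interaction of Cish was only 0.31 ± 0.37. The difference in Cish between the cell types was already there without cytokine, with a log2 fold change of 4.84 ± 0.36. Socs2 went from 6.51, 18.1 and 15.5 RPKM without cytokine to 44.3, 47.2 and 30.2 RPKM with IL-2 in Tregs. In CD8+ T cells Socs2 read 0.557 RPKM without cytokine, 2.61 under IL-2 and 0.385 under IL-2-REH (2.45 ± 0.57). Its log2 fold change between the cell types was 4.43 ± 0.51 without cytokine, and its interaction against unstimulated cells was 1.84 ± 0.58.

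For cytokine, cell cycle and survival genes among the targets, the CD8+ library given IL-2 was far above the one given IL-2-REH. Tnf read 2.03 RPKM without cytokine, 20.8 under IL-2 and 1.77 under IL-2-REH in CD8+ T cells, and 10.5, 20.5 and 11.5 RPKM with IL-2 in Tregs (3.35 ± 0.75). Lta read 3.21, 43.4 and 4.37 RPKM in the same order in CD8+ T cells (2.46 ± 0.99). Cdk6 read 4.69, 25.2 and 2.47 RPKM (2.2 ± 0.50) and Bcl2 30.4, 98.5 and 13.4 RPKM (2.41 ± 0.64). In each of these 4 genes the CD8+ value was highest with IL-2, while with IL-2-REH Tnf, Cdk6 and Bcl2 were below the unstimulated value. Treg means of Cdk6 were 6.64 RPKM without cytokine, 14.0 under IL-2 and 6.41 under IL-2-REH. Those of Bcl2 were 24.3, 35.0 and 25.1 RPKM, with unstimulated libraries from 11.1 to 35.8 RPKM. In Tregs too, Cdk6 and Bcl2 were thus near the unstimulated mean with IL-2-REH. Treg means of Tnf were 10.1, 14.2 and 12.1 RPKM.

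**Figure D4:**
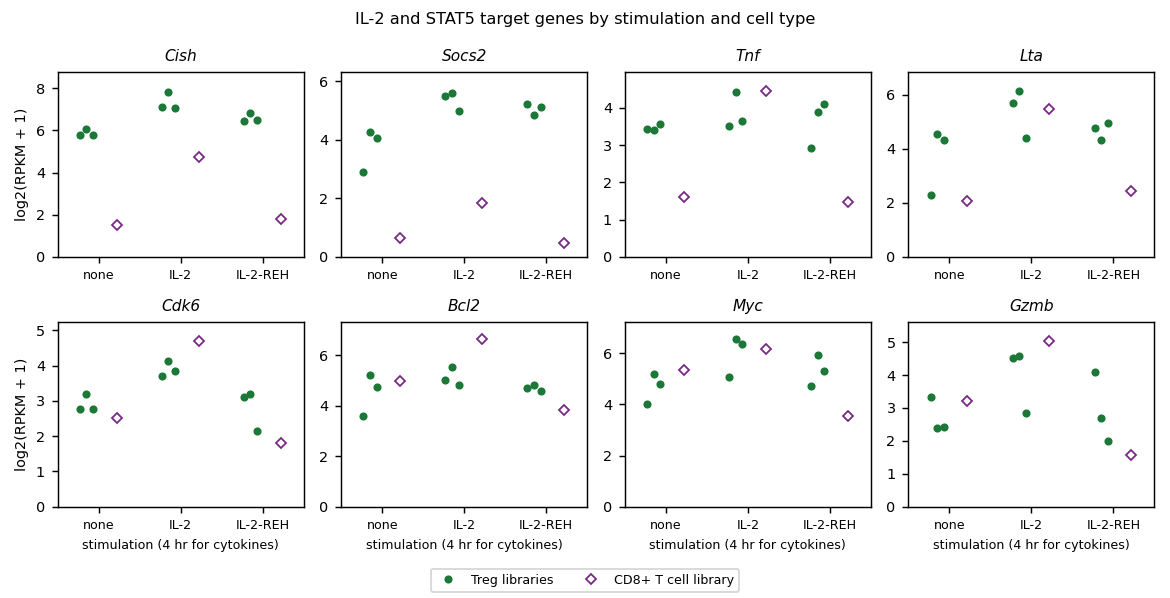
Each panel shows a target gene, with filled green circles for the 3 Treg libraries and open purple diamonds for the CD8+ T cell library, on a log2(RPKM + 1) axis against the stimulation (none, IL-2 for 4 hr, IL-2-REH for 4 hr). Tnf, Lta, Cdk6 and Bcl2 in CD8+ T cells were high under IL-2 and low under IL-2-REH, whereas Cish in Tregs was above the unstimulated libraries under both cytokines. In Tregs the means of Cdk6 and Bcl2 were also lower under IL-2-REH than under IL-2.

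Against unstimulated cells, 7 of 28 targets had an unadjusted p under 0.05 and all 7 were positive (1.17% over all genes), with a median of 0.93 beside 0.04 over all genes. Of 19 immediate early genes, 7 were positive as well (Dusp1, Fos, Fosb, Fosl1, Ier2, Jun and Junb), and their median was 1.62. Fos read 146, 132 and 341 RPKM in unstimulated Tregs and 116 RPKM in unstimulated CD8+ T cells, above each library with IL-2-REH. Fosb read 78.9, 22.1, 97.9 and 48.4 RPKM in the same order without cytokine, and its interaction was 5.46 ± 1.48. The median change of the list from unstimulated to IL-2-REH was -0.83 in Tregs and -1.81 in CD8+ T cells.

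Il7r went the other way, with 56.6, 86.1 and 65.7 RPKM in unstimulated Tregs and 130 RPKM in unstimulated CD8+ T cells, where it read 403 RPKM under IL-2-REH and 123 under IL-2. Its interaction against unstimulated cells was -2.12 ± 0.57. Il2ra, by contrast, read 62.7, 117 and 91.5 RPKM in unstimulated Tregs and 1.58 RPKM in unstimulated CD8+ T cells, and its interaction was -0.56. The difference in Il2ra was thus present without cytokine, where its log2 fold change was 5.70 ± 0.54 (adjusted p = 3.47e-05). Those of Cish and Socs2, given above, were present there as well.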

How the data were processed

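The 4 libraries were compared within a fit of all 20. Per the labels, the authors' tools were Bowtie2 2.2.6, TopHat2 2.1.1, SAMtools 0.1.8, bedtools 2.25.0 and edgeR, with mm10. The authors deposited, for each of 31682 RefSeq transcripts, uniquely mapped exon read counts and RPKM, scaled by exon length and mapped reads. Whether counting used strand is not given in the sources used here, and 134 of 380 list genes overlap another annotated gene (Foxp3 overlaps Flicr and Ccdc22, for example), so reads there are uncertain.

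Each of 23992 symbols was represented by its transcript with the most reads. No 2 libraries were identical (0 pairs). Read counts were tested with edgeR 4.0.16 in R 4.3.3 (TMM, filterByExpr, glmQLFit, glmQLFTest, a mean per group), and p-values were adjusted by Benjamini-Hochberg, with calls at an adjusted p under 0.05. The standard error is the log2 fold change divided by the square root of F. The fit was also run on simulated counts with known changes. Every simulated library had the same spread, so the assumption made for the CD8+ library was not tested. Interactions compared the change between conditions in Tregs with that in CD8+ T cells. RPKM served for levels and, with a pseudocount of 1, for the 4-fold count. Coordinates and promoters came from RefSeq (GRCm38.p6). Coordinates were matched by transcript, with 23528 symbols placed, and promoters by symbol.

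The main fit took no pairs and so treated same-numbered libraries as independent. Replicate number served as a block only in the alternative fits. That block was tried since deviations of same-numbered Treg libraries from group means correlated across genes (r = 0.12 to 0.76). These correlations covered unstimulated Tregs and Tregs given IL-2 or IL-2-REH for 4 hr, and the earlier time point was not compared. CD8+ libraries share number 1 alone. Genes named were members of the lists, plus the 10 highest and 10 lowest changes that passed the test and the 4-fold count with at least 5 RPKM in the higher group. The libraries, lists and rules were chosen with earlier results of these data known. Alternatives were DESeq2 1.42.0, limma 3.58.1 on log2(RPKM + 1), other normalization, filters, pseudocount, threshold and transcript, the replicate block, fewer libraries and leaving out each Treg replicate. 1 member of the quiescence and lymph node homing list is not reported here by name, but it counts in that list's totals.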

Additional observations from a re-analysis of the deposited data

How the results depend on the processing

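The count of 1026 genes that differed between Tregs and CD8+ T cells under IL-2-REH became 1674 with DESeq2 and 636 with limma on log2(RPKM + 1), which tested fewer genes. It was 527 when only the 4 libraries compared were fitted, 2658 with the replicate block and 1591 with the CD8+ library in block 3, and it ranged from 784 to 917 when 1 Treg replicate was left out. The other normalization, filters and transcript choice kept it between 826 and 1026. The 4-fold count of 229 became 525 with a pseudocount of 0.1, 852 at a threshold of 1 and 403 against Treg replicate 3 alone, and ranged from 262 to 285 without 1 Treg replicate. As every Treg library used must pass, a lower threshold can only raise this count, and fewer libraries loosen its rule. The interaction against unstimulated cells, with 0 calls, had 11 with DESeq2, and 0 to 4 without 1 replicate, the 4 arising without replicate 1 of the unstimulated Tregs. The interaction against IL-2, with 0 calls, had 6 with DESeq2, 1 (Cish) with a minimum mean RPKM of 1, 1 (Cish) with the replicate block, and 0 to 1 without 1 replicate, the 1 being Cish without replicate 2 of the Tregs given IL-2. Beyond the rule of the 4-fold count and the smaller number of libraries or genes, why these counts moved was not tested. Of 799 values recomputed for 59 named genes, some of them interactions, 21 gained a call, 23 lost it and 2 changed sign. The 2 were Il2rg with limma (0.0208) and Jak3 with the replicate block (-0.10). These 59 do not cover all genes named above. Over all list genes and the largest changes, 18, 19 and 17 calls were lost without Treg replicate 1, 2 or 3, and 2 gained each time. With the block 65 calls were gained with the CD8+ library in block 1. In block 3, 42 were gained and 1 lost. The 1 CD8+ library limits all comparisons, since its own error was not measured. Ratios of genes with up to 3 CD8+ reads are limited by depth.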
